A study of Mus musculus with 24 samples.

Results

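De novo lipogenesis is the making of fatty acids from carbohydrate, and 10 of its genes were followed here in mouse liver and in cultured mouse hepatocytes: Mlxipl, Srebf1, Pklr, Acly, Acaca, Acacb, Fasn, Scd1, Thrsp and Pnpla3. They were chosen by name from textbook knowledge of the pathway, with earlier results of these data known. Of these, 10 of 10 were among the 18820 genes measured with probe sets annotated to a single symbol. Acaca had 2 such probe sets, of which the brighter was used, and each of the other genes had 1. Expression was read on 24 one-colour arrays in 8 groups of 3: NEMO knockout, KEAP1 knockout, double knockout and control, each as whole liver and as primary hepatocytes.

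All mice were labelled as males aged 8 weeks. NEMO knockout mice carried floxed NEMO (Ikbkg) and the Alfp-Cre transgene, in which albumin and alpha-fetoprotein regulatory elements drive Cre in cells of the hepatocyte lineage. KEAP1 knockout mice carried floxed KEAP1 and the same Cre, and double knockout mice (NEMOΔhepa/KEAP1Δhepa) came from crossing both lines. Controls were NEMOf/f mice, so the knockouts differed from them in the deleted alleles and in Cre. KEAP1 knockouts and double knockouts also differed from these controls in their line or cross of origin. No group of floxed KEAP1 mice without Cre was included. NEMO is needed by the IKK kinases that switch on NF-kB, and KEAP1 holds the antioxidant transcription factor NRF2 at a low level. Cells in which Cre was never active keep both genes, and whether bile duct cells are among them was not tested. Hepatocytes were isolated by collagenase perfusion and kept overnight in high glucose medium with 10% serum. Feeding state and time of day were not given in the sources used here, and the labels do not say whether the liver and the hepatocytes came from the same animals.

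Lipogenesis in hepatocytes turns glucose carbon into palmitate and oleate for triglyceride. A pair of transcription factors controls it: SREBP-1c, encoded by Srebf1, answers to insulin, and ChREBP, encoded by Mlxipl, answers to glucose metabolites and binds carbohydrate response elements together with Mlx. The liver pyruvate kinase gene Pklr is a classic target of ChREBP, while Fasn, Acaca, Acly and Scd1 respond to both factors.

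On assembly GRCm38.p6 the regulators lie at chr5:135089890-135139768 (Mlxipl) and chr11:60199084-60224186 (Srebf1). Pklr, whose product makes pyruvate in the last step of glycolysis, lies at chr3:89136122-89146815. Acly (chr11:100476352-100528000) encodes ATP citrate lyase, which releases acetyl-CoA from citrate in the cytosol. Acaca (chr11:84129635-84401651) encodes the acetyl-CoA carboxylase that makes malonyl-CoA for synthesis, and Acacb (chr5:114146321-114250761) the mitochondrial carboxylase whose malonyl-CoA restrains fatty acid oxidation. Fasn (chr11:120805958-120825166) encodes fatty acid synthase and Scd1 (chr19:44394450-44407709) the delta-9 desaturase. Thrsp (chr7:97412933-97417550) encodes Spot 14, a lipogenic cofactor, and Pnpla3 (chr15:84167776-84189521) a lipid droplet protein. The probe sets report whole genes, and where on each gene they lie was not used here.

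Promoter windows of 250 bases before to 50 bases after the start were taken from RefSeq on assembly GRCm38.p6, which gave 13 windows for 9 of the 10 genes. Windows of Pklr and Mlxipl are printed because these genes were called in more comparisons than the others. Both are on the plus strand, and capitals mark a carbohydrate response element and an inverted CCAAT box in the Pklr window, and an inverted CCAAT box and an E-box in the Mlxipl window.
Pklr, chr3:89136373-89136672: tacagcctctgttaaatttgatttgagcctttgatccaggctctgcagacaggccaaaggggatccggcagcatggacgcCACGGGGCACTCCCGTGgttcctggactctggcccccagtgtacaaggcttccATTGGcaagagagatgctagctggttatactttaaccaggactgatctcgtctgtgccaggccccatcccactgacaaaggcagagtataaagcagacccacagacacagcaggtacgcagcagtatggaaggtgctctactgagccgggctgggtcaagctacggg
Mlxipl, chr5:135089640-135089939: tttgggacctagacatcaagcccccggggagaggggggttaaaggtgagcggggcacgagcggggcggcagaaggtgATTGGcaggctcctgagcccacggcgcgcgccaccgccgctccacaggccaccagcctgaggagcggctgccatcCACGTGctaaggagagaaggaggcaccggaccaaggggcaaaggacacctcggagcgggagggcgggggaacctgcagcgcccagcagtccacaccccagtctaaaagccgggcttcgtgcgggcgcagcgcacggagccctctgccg
The carbohydrate response element was searched on both strands as CACGNG followed by CNCGTG with 5 bases between them. It was found in the Pklr window, as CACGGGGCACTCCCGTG from base -170, in no other of the 13 windows and in 15 of all 32851 windows (0.0457%). The other motifs were also searched on both strands. The E-box CACGTG was found in the Mlxipl window from base -98 and in 7.15% of all windows. The sterol response element core TCACNCCAC matched in another Mlxipl window, as TCACACCAC from base -136, and in 1.24% of all windows. An antioxidant response element core, TGACNNNGC, matched in the Pklr window after the start and in 12.4% of all windows. CCAAT boxes stood in 9 of the 13 windows, those of 8 genes, and in 37.4% of all windows. These matches describe the letters in the windows and say nothing of binding.

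The labels were checked before the groups were compared. Ikbkg, the gene of NEMO, was at 6.14 to 6.26 (log2 expression) in NEMO knockout livers and at 6.18 to 6.47 in double knockout livers, against 6.40 to 6.86 in control livers. Keap1 was at 5.38 to 5.76 in KEAP1 knockout livers and at 5.75 to 5.93 in double knockout livers, against 5.88 to 6.35 in control livers. In hepatocytes Ikbkg was at 6.26 to 6.6 in NEMO knockouts and 6.01 to 6.29 in double knockouts, against 6.63 to 6.69 in controls, and Keap1 at 5.73 to 5.91 in KEAP1 knockouts and 5.62 to 5.87 in double knockouts, against 5.90 to 6.32 in controls. Array 3 of the liver controls had the NRF2 targets Nqo1 at 9.17 and Slc7a11 at 9.29, against 4.71 to 5.37 and 2.42 to 2.63 on the other liver controls. Array 3 of the double knockout livers had the fat cell genes Adipoq at 7.17 and Ucp1 at 6.74, while Adipoq was at most 2.76 and Ucp1 at most 3.06 elsewhere. Double knockout hepatocytes 3 and control hepatocytes 1 had the female transcript Xist at 9.76 and 9.65 although their labels say male, and Eif2s3y, a gene of the Y chromosome, at 2.71 and 2.51. Results are therefore given with all arrays and without these 4, which leaves 2 arrays in each double knockout and control group. The mean of 7 hepatocyte markers lay between 12.16 and 12.55 on all 24 arrays. These means are near the highest value in the data, 13.62, so moderate changes in hepatocyte markers may be understated.

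The plot of the 10 genes by array gives their order by genotype in each tissue. In liver, the mean was highest in NEMO knockouts for 6 genes (Fasn, Acaca, Acly, Scd1, Srebf1 and Pnpla3) and lowest in double knockouts for 5 (Acacb, Acly, Srebf1, Pklr and Mlxipl). In hepatocytes it was highest in controls for 8 genes, all but Acly and Scd1, and lowest in double knockouts for 7, the other 3 (Fasn, Acaca and Scd1) being lowest in KEAP1 knockouts. Many neighbours in these orders overlapped. Within groups the 10 genes were variable: the standard deviation in liver ranged from 0.20 for Scd1 to 0.43 for Pklr and lay above the median of all genes (0.19) for all 10. In hepatocytes it ranged from 0.15 for Mlxipl to 0.64 for Thrsp, and 4 of the 10 (Fasn, Acly, Srebf1 and Thrsp) lay above the 90th percentile of genes.

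**Figure D1:**
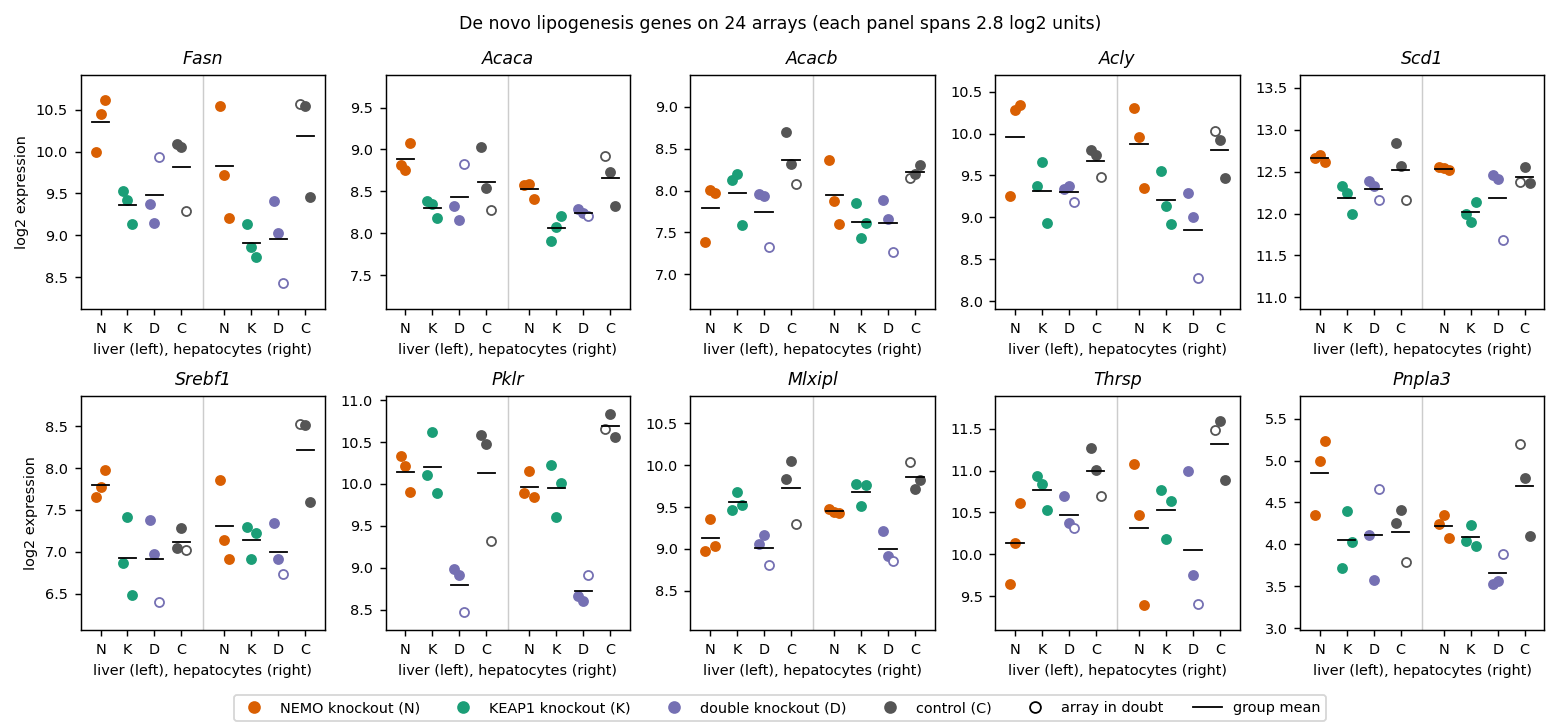
Log2 expression (y axis) of each of the 10 genes on 24 arrays, with liver groups on the left and hepatocyte groups on the right of each panel (x axis). Points are arrays, lines are group means of 3 arrays, and open points are the 4 arrays in doubt. Pklr lies between 8.47 and 8.99 in the double knockouts of both tissues, below all other arrays of its tissue.

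Pklr was lower in double knockouts than on every other array of the same tissue. In hepatocytes it was at 8.66, 8.60 and 8.91 in double knockouts, at 9.89, 10.15 and 9.85 in NEMO knockouts, at 10.23, 9.61 and 10.01 in KEAP1 knockouts and at 10.66, 10.84 and 10.56 in controls. All 3 double knockout cultures lay below every other culture, and both single knockouts lay between them and the controls. The log2 change in double knockout hepatocytes against control was -1.96 ± 0.15 (standard error, n = 3 arrays a group). This was a 3.9-fold lower level with an adjusted p of 4.79e-06 in limma's test over all genes. Changes below are given in the same way, but without the 4 arrays n is 2 in each double knockout and control group. Pklr also fell in NEMO knockout cultures, with a change of -0.73 ± 0.15 (adjusted p = 0.0083), and in KEAP1 knockout cultures, with a change of -0.74 ± 0.15 (adjusted p = 0.0224). The last of these lost its call in 4 of 18 alternative analyses, up to an adjusted p of 0.0818, and the others held in all. The double knockout was below each single knockout, by -1.24 ± 0.15 against NEMO knockout (adjusted p = 0.000437) and by -1.23 ± 0.15 against KEAP1 knockout (adjusted p = 0.00126). Whether the joint loss lowered Pklr by more than the sum of both single losses was not settled: the interaction was -0.50 ± 0.21, with a 95% interval of -0.95 to -0.05 before correction and an adjusted p of 0.446.

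In liver, Pklr was at 8.99, 8.91 and 8.47 in double knockouts, at 10.33, 10.21 and 9.90 in NEMO knockouts, at 10.11, 10.62 and 9.89 in KEAP1 knockouts and at 10.58, 10.48 and 9.32 in controls. The double knockout livers again lay below all others, and control 3, an array in doubt, was the lowest of the rest. Against control the change was -1.33 ± 0.29, a 2.52-fold lower mean that did not pass the correction (adjusted p = 0.134). It passed without the 4 arrays, at -1.58 ± 0.20 (adjusted p = 0.000603), and with the replicate number as a block (adjusted p = 0.0127). No label pairs same-numbered arrays, and the block joins control 3 with double knockout 3, both in doubt. Neither single knockout was called against control, with changes of 0.02 ± 0.29 for NEMO knockout and 0.08 ± 0.29 for KEAP1 knockout. On the arrays not in doubt these were below 0 and still not called, at -0.38 ± 0.18 for NEMO knockout (adjusted p = 0.199) and -0.32 ± 0.18 for KEAP1 knockout (adjusted p = 0.343). Against them the double knockout stood at -1.36 ± 0.29 (NEMO knockout, adjusted p = 0.0531) and -1.41 ± 0.29 (KEAP1 knockout, adjusted p = 0.569), and without the 4 arrays at -1.20 ± 0.18 (adjusted p = 0.00281) and -1.26 ± 0.18 (adjusted p = 0.0377). The interaction in liver was -1.44 ± 0.42, with an adjusted p of 0.643 and of 0.15 without the 4 arrays.

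Mlxipl, the gene of ChREBP, followed Pklr in part. Its level in hepatocytes was 9.21, 8.92 and 8.85 in double knockouts, 9.48, 9.44 and 9.43 in NEMO knockouts, 9.77, 9.51 and 9.76 in KEAP1 knockouts and 10.04, 9.71 and 9.82 in controls. Double knockout cultures were lowest without overlap, NEMO knockout cultures came next without overlap, and KEAP1 knockout cultures overlapped the controls. The change against control was -0.86 ± 0.11 in double knockouts (1.82-fold lower, adjusted p = 0.000264) and -0.41 ± 0.11 in NEMO knockouts (adjusted p = 0.0452). In KEAP1 knockouts it was -0.18 ± 0.11 and was not called. The double knockout was lower than KEAP1 knockout (-0.69 ± 0.11, adjusted p = 0.00584) and than NEMO knockout (-0.46 ± 0.11, adjusted p = 0.0438). Both results that involve NEMO knockout cultures lost their call without the 4 arrays, at -0.32 ± 0.11 against control (adjusted p = 0.125) and -0.38 ± 0.11 for double against NEMO knockout (adjusted p = 0.0736).

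In liver, Mlxipl was at 9.06, 9.16 and 8.81 in double knockouts, at 8.98, 9.36 and 9.04 in NEMO knockouts, at 9.46, 9.68 and 9.53 in KEAP1 knockouts and at 9.83, 10.05 and 9.30 in controls. NEMO knockout and double knockout livers overlapped each other and lay below the KEAP1 knockouts. With all arrays no change was called: -0.72 ± 0.17 in double knockouts (adjusted p = 0.134, and 0.0216 with the replicate block) and -0.60 ± 0.17 in NEMO knockouts (adjusted p = 0.104). Without the 4 arrays both were called, at -0.83 ± 0.13 (adjusted p = 0.00273) and -0.81 ± 0.12 (adjusted p = 0.00146). Among other genes of the ChREBP machinery, its partner Mlx did not pass in double knockout hepatocytes (-0.25 ± 0.11, adjusted p = 0.211).

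Srebf1, the gene of SREBP-1c and SREBP-1a, was highest in control cultures. Hepatocytes had it at 7.86, 7.14 and 6.91 in NEMO knockouts, at 7.30, 6.91 and 7.22 in KEAP1 knockouts, at 7.35, 6.91 and 6.74 in double knockouts and at 8.53, 8.52 and 7.59 in controls. KEAP1 knockout and double knockout cultures lay below all controls, and NEMO knockout culture 1 overlapped them. The fall in double knockouts, -1.22 ± 0.27, was called (2.32-fold lower, adjusted p = 0.0121) but not without the 4 arrays (-0.93, adjusted p = 0.1). The changes of -1.07 ± 0.27 in KEAP1 knockouts (adjusted p = 0.0693) and -0.91 ± 0.27 in NEMO knockouts (adjusted p = 0.0687) just missed the threshold.

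In liver, Srebf1 was at 7.66, 7.77 and 7.98 in NEMO knockouts, at 6.87, 7.42 and 6.49 in KEAP1 knockouts, at 7.38, 6.97 and 6.40 in double knockouts and at 7.05, 7.29 and 7.02 in controls. All NEMO knockout livers lay above all controls, with a change of 0.68 ± 0.25 that was not called (adjusted p = 0.181). Double knockout livers lay below all NEMO knockout livers, by -0.88 ± 0.25 (adjusted p = 0.129). Control hepatocytes were above control livers on every array, with a change of 1.09 ± 0.28 (2.13-fold higher, adjusted p = 0.0245), and that call was lost without the 4 arrays (0.88 ± 0.32, adjusted p = 0.17).

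Fasn was low in the cultures that lacked KEAP1. In hepatocytes it was at 10.55, 9.72 and 9.21 in NEMO knockouts, at 9.14, 8.86 and 8.74 in KEAP1 knockouts, at 9.41, 9.03 and 8.43 in double knockouts and at 10.57, 10.54 and 9.46 in controls. Every culture that lacked KEAP1, alone or with NEMO, lay below every control, while NEMO knockouts spanned both ranges. The fall in double knockouts was -1.23 ± 0.35 (2.35-fold, adjusted p = 0.0406), which was not called without the 4 arrays (-0.78 ± 0.38, adjusted p = 0.261). The change in KEAP1 knockouts was of the same size, -1.27 ± 0.35, and missed the threshold (adjusted p = 0.0903).

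In liver, Fasn was at 10.00, 10.45 and 10.61 in NEMO knockouts, at 9.53, 9.42 and 9.13 in KEAP1 knockouts, at 9.37, 9.15 and 9.94 in double knockouts and at 10.09, 10.05 and 9.29 in controls. The KEAP1 knockout livers lay below controls 1 and 2 and overlapped control 3, and double knockout 3, the array with fat cell genes, was the highest of its group. No change was called with all arrays, at -0.45 ± 0.25 in KEAP1 knockouts (adjusted p = 0.669) and -0.32 ± 0.25 in double knockouts (adjusted p = 0.467). Without the 4 arrays Fasn was called lower in KEAP1 knockouts (-0.71 ± 0.17, adjusted p = 0.0294), in double knockouts (-0.81 ± 0.18, adjusted p = 0.0166) and in double against NEMO knockouts (-1.09 ± 0.17, adjusted p = 0.00307).

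Scd1 was bright in every group, from 11.68 to 12.84. As these values are near the highest in the data, 13.62, changes of Scd1 may be understated. Cultures had it at 12, 11.90 and 12.14 in KEAP1 knockouts, at 12.46, 12.41 and 11.68 in double knockouts and at 12.38, 12.55 and 12.37 in controls, with NEMO knockouts at 12.52 to 12.55. KEAP1 knockout cultures lay below all controls, by -0.42 ± 0.16 (adjusted p = 0.239), and were called only without the 4 arrays (-0.45 ± 0.08, adjusted p = 0.0143). On the same arrays the double knockouts stood above KEAP1 knockouts by 0.42 ± 0.08 (adjusted p = 0.0113), where all arrays gave 0.17. KEAP1 knockout livers were at 11.99 to 12.33, against 12.16 to 12.84 in control livers, a change of -0.33 ± 0.15 that was called only without the 4 arrays (-0.51 ± 0.11, adjusted p = 0.0192).

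Acaca was called in KEAP1 knockout hepatocytes. It was at 7.91, 8.08 and 8.20 there and at 8.29, 8.24 and 8.21 in double knockouts, against 8.92, 8.73 and 8.33 in controls, with NEMO knockouts at 8.41 to 8.59. Both groups that lacked KEAP1 lay below all controls. The fall in KEAP1 knockouts was -0.60 ± 0.13 (1.51-fold, adjusted p = 0.0374), and it lost its call in 13 of 18 alternative analyses, among them the one without the 4 arrays (-0.47, adjusted p = 0.103) and the one with the mean of both probe sets. In double knockouts the change of -0.41 was not called (adjusted p = 0.0689). In liver Acaca was called only in double against NEMO knockouts without the 4 arrays (-0.64 ± 0.15, adjusted p = 0.032).

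Acly fell in double knockout hepatocytes, where it was at 9.29, 9.0 and 8.27, against 10.03, 9.92 and 9.47 in control hepatocytes. All 3 double knockout arrays lay below all controls, with a change of -0.96 ± 0.27 (1.94-fold lower, adjusted p = 0.0436) that became -0.55 and uncalled without the 4 arrays (adjusted p = 0.263). It was called in no other comparison with either set of arrays. Acacb was at 7.43 to 7.85 in KEAP1 knockout hepatocytes and 7.27 to 7.89 in double knockout hepatocytes, against 8.15 to 8.31 in control hepatocytes. Neither change was called (-0.59, and -0.61 with an adjusted p of 0.0597), although the groups did not overlap. In NEMO knockout livers Acacb was at 7.39 to 8.01, against 8.08 to 8.70 in control livers, and this change of -0.58 ± 0.24 was called only without the 4 arrays (-0.72 ± 0.21, adjusted p = 0.0437).

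Thrsp was low in NEMO knockout livers. It was at 9.64, 10.14 and 10.61 in NEMO knockout livers, against 11.27, 11.01 and 10.70 in control livers, and the groups did not overlap. The change of -0.86 ± 0.22 missed the threshold (adjusted p = 0.0761) and passed without the 4 arrays (-1.01 ± 0.22, adjusted p = 0.0126). Double knockout livers were at 10.70, 10.38 and 10.32, reaching the lowest control, and their change of -0.53 ± 0.22 was not called (adjusted p = 0.206, and 0.156 without the 4 arrays). In hepatocytes Thrsp varied more within groups than 99.2% of genes: double knockouts were at 10.99, 9.75 and 9.41, against 11.48, 11.59 and 10.89 in controls. None of its changes in culture was called, though all were below 0 against control (-1.0 ± 0.42 in NEMO knockouts, -0.79 in KEAP1 knockouts and -1.27 ± 0.42 in double knockouts, adjusted p = 0.0772).

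Pnpla3 gave a weak signal, between 3.52 and 5.23, near the array medians of 4.03 to 4.23, so its changes may be understated. In hepatocytes it was at 3.52, 3.56 and 3.89 in double knockouts, against 5.20, 4.79 and 4.10 in controls, with no overlap. The change of -1.04 ± 0.23 was called with all arrays (2.06-fold lower, adjusted p = 0.0104) and without the 4 (-0.90 ± 0.22, adjusted p = 0.0242). In NEMO knockout livers Pnpla3 was at 4.35, 4.99 and 5.23, against 4.25, 4.41 and 3.79 in control livers, a change of 0.71 ± 0.30 that was not called (adjusted p = 0.245).

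Counted together, the calls among the 10 genes in hepatocytes were all falls against control, and the double knockout had the highest number. Of the 10 genes, 6 fell in double knockout hepatocytes (Pklr, Mlxipl, Pnpla3, Srebf1, Fasn and Acly), where 9.72% of all genes were called and 2.99% were called lower. All 10 changes were below 0, with a median of -1.0 against -0.03 over all genes, and 8 of 10 genes lay below all controls on every array, against 12.5% of all genes. In KEAP1 knockout hepatocytes 2 genes fell (Pklr and Acaca) where 1.87% of all genes were called and 0.425% were called lower, the median change was -0.61 against 0.00, and 7 of 10 lay below all controls against 9.21% of genes. In NEMO knockout hepatocytes 2 fell (Pklr and Mlxipl) where 6.65% were called and 2.05% called lower, and these same 2 were the ones without overlap, against 11.8% of genes below. The 3 comparisons share their control arrays, so they are not independent of each other. Double knockout hepatocytes had 2 genes lower than NEMO knockouts (3.32% of all genes called, 1.16% lower) and 2 lower than KEAP1 knockouts (2.75% called, 0.59% lower), Pklr and Mlxipl each time. Without the 4 arrays, 3 genes fell in double knockout hepatocytes (Pklr, Mlxipl and Pnpla3, with 9.23% of all genes called and 2.79% lower), 2 in KEAP1 knockouts (Pklr and Scd1, 1.82% and 0.473%) and 1 in NEMO knockouts (Pklr, 5.58% and 1.45%). On those arrays Pklr alone was lower in double than in NEMO knockouts (3.8% and 1.42%), while Pklr and Mlxipl were lower and Scd1 higher in double than in KEAP1 knockouts (3.78% and 0.946%). By overlap, 6 genes (Acaca, Acly, Scd1, Pklr, Mlxipl and Pnpla3) lay lower in all double than in all NEMO knockout cultures, against 9.72% of genes, and Pklr, Mlxipl and Pnpla3 lower and Acaca higher in all double than in all KEAP1 knockout cultures, against 10.4% and 11.1%. The interaction of both losses called 0 of the 10 in hepatocytes, where limma called 0.0425% of genes. At an unadjusted p under 0.05 there was 1 of the 10, beside 1869 of all 18820 genes.

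In liver limma called 0 of the 10 genes in any comparison with all arrays. NEMO knockout livers had 1.33% of all genes called, double against NEMO knockout livers 1.05%, double knockout against control 0.00531%, the interaction 0.0106%, and KEAP1 knockout against control and double against KEAP1 knockout 0% each. At an unadjusted p under 0.05 there were 6 of the 10 in NEMO knockouts, 1 in KEAP1 knockouts, 4 in double knockouts, 7 in double against NEMO knockouts, 2 in double against KEAP1 knockouts and 1 in the interaction. Of all 18820 genes, 3379, 1447, 3901, 2241, 1429 and 952 met that same threshold, in the same order. All 10 changes were below 0 in double knockout livers, with a median of -0.35 against -0.04 over all genes, and 4 (Acacb, Acly, Pklr and Mlxipl) lay below all controls, against 11.6% of genes. When the 4 arrays were left out, 9 of the 10 changes were below 0, with a median of -0.55 against -0.04 over all genes. Double against NEMO knockout livers had a median change of -0.55 against 0.00, with Fasn, Scd1, Srebf1 and Pklr below without overlap, against 9.74% of genes. NEMO knockout livers were mixed, with 7 of 10 changes above 0 and a median of 0.20, and without the 4 arrays 5 were above 0 and 5 below, with a median of 0.03. Srebf1 lay above all controls there, against 10.7% of genes, and Acacb and Thrsp below, against 11.5%. KEAP1 knockout livers had 0 of the 10 below all controls, against 6.45% of genes, and double knockout livers had Pklr and Mlxipl below all KEAP1 knockouts, against 8.53%.

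Without the 4 arrays the liver comparisons called more genes, both among the 10 and over the whole array. On these arrays 3 fell in NEMO knockouts (Mlxipl, Thrsp and Acacb, with 12% of all genes called and 3.55% lower), 2 in KEAP1 knockouts (Scd1 and Fasn, 5.26% and 1.55%) and 3 in double knockouts (Pklr, Mlxipl and Fasn, 9.20% and 2.84%). A further 3 were lower in double than in NEMO knockouts (Pklr, Fasn and Acaca, 3.46% and 1.54%), and 1 was lower in double than in KEAP1 knockouts (Pklr, 0.0531% and 0.0106%). None of the 10 was called higher in these liver comparisons. The heat map of changes sets both versions side by side.

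**Figure D2:**
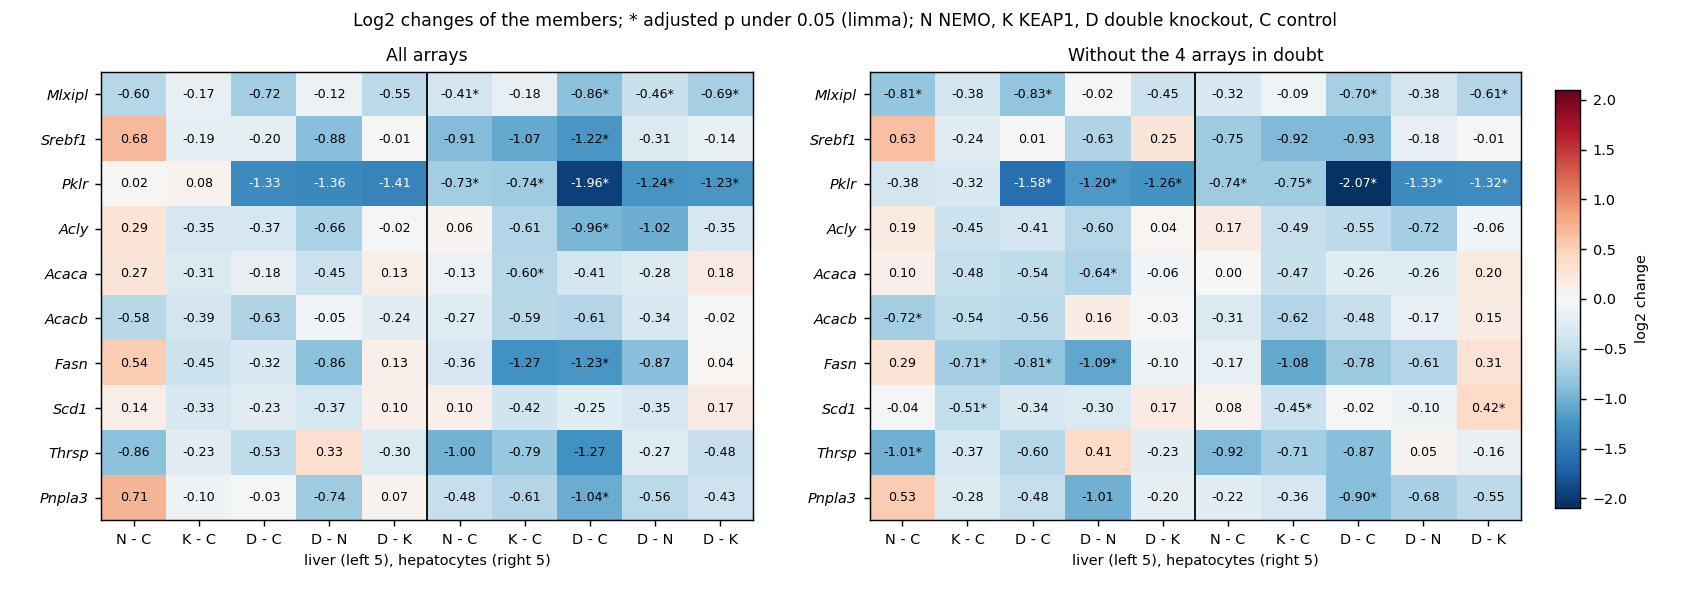
Log2 change (colour and printed value) of each of the 10 genes (rows) in 5 comparisons in liver and 5 in hepatocytes (columns), with all arrays on the left and without the 4 arrays in doubt on the right. An asterisk marks an adjusted p under 0.05 in limma's test over all genes. Pklr reaches -1.96 in double knockout hepatocytes against control and is called in all 5 hepatocyte comparisons.

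Liver and culture were then compared with each other. In NEMO knockouts Srebf1 was on the opposite side of control in the 2 settings, and its change in hepatocytes minus its change in liver was -1.59 ± 0.40, unadjusted p = 0.00068 and adjusted p = 0.16 in limma's test over all genes. Pnpla3 showed the same pattern with a difference of -1.18 ± 0.40 (adjusted p = 0.346). Over the 10 genes the median of this difference was -0.32, and -0.06 without the 4 arrays. No difference of changes was called for any of the 10 genes in NEMO knockouts, KEAP1 knockouts or double knockouts, where 0.0691%, 0% and 0.0691% of all genes were called. At an unadjusted p under 0.05 there were 3, 2 and 2 of the 10, beside 1781, 1069 and 1428 of all 18820 genes. Within a genotype, 0 of the 10 were called between hepatocytes and liver in NEMO knockouts (3.77% of all genes called), in KEAP1 knockouts (2.49%) and in double knockouts (2.24%). An unadjusted p under 0.05 was reached by 2, 0 and 0 of the 10, beside 3820, 2955 and 3191 of all 18820 genes. In controls 1 of 10, Srebf1, was called, where 5.13% of all genes were called with all arrays, and 0 of 10 where 3.06% were called without the 4. Srebf1 was also the 1 gene higher on all control hepatocyte arrays, against 8.91% of all genes. The fall of Pklr in double knockouts was -1.96 in hepatocytes and -1.33 in liver, and this difference of -0.63 ± 0.35 was not called (adjusted p = 0.733).

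**Figure D3:**
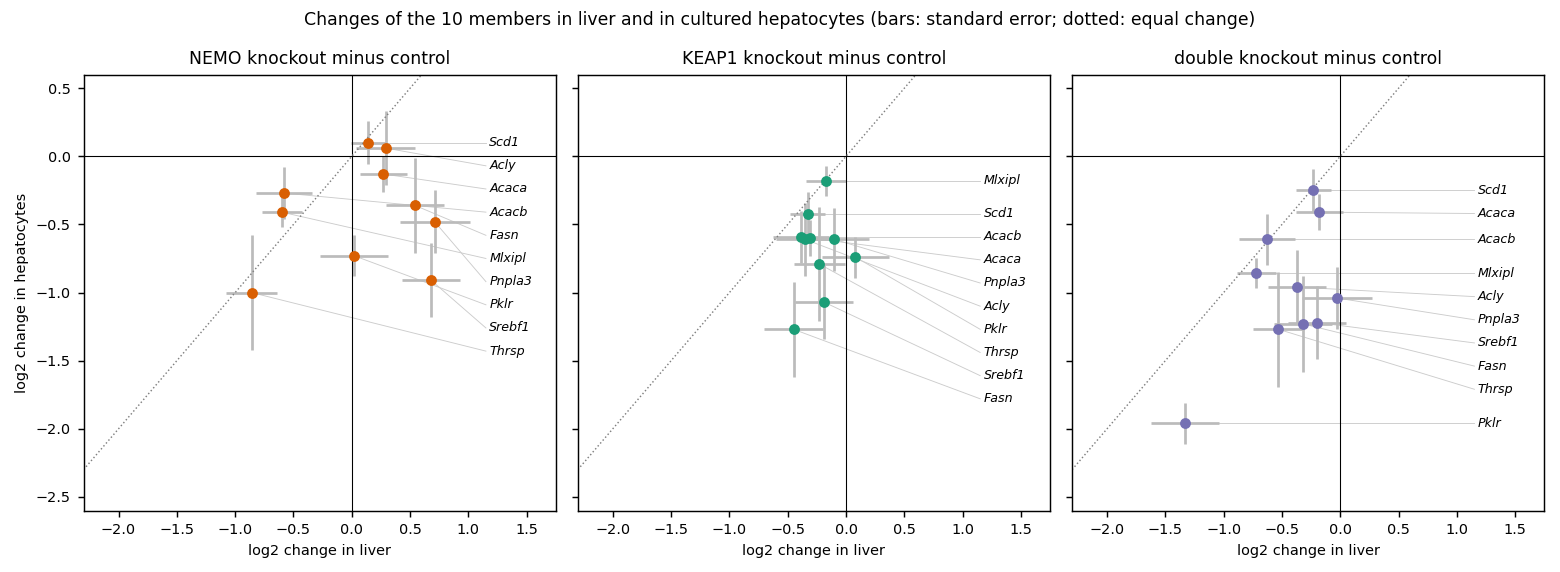
Log2 change against control in hepatocytes (y axis) and in liver (x axis) of each of the 10 genes, for NEMO knockout, KEAP1 knockout and double knockout. Points are fitted changes from 3 arrays a group, bars are standard errors and the dotted line marks equal change. Pklr in the double knockouts is the farthest below 0 on both axes, and Srebf1 in NEMO knockouts lies at 0.68 in liver and -0.91 in hepatocytes.

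Genes around the pathway were counted from the pathway lists. Shares of all genes called in the same comparisons, for these counts and the marker counts below, are those given above. Against control hepatocytes they were 6.65% in NEMO, 1.87% in KEAP1 and 9.72% in double knockouts, with 2.05%, 0.425% and 2.99% called lower. Of 11 genes that supply carbon and NADPH, Pgd, Taldo1 and Tkt of the pentose phosphate pathway rose in double knockout hepatocytes and the fructokinase Khk fell. Pgd, a source of NADPH and a known NRF2 target, changed by 1.76 ± 0.21 (adjusted p = 0.000128). It also rose in KEAP1 knockout hepatocytes (0.99 ± 0.21, adjusted p = 0.0284), as 1 of 11, and not in NEMO knockouts, where Me1 (-0.40 ± 0.11) and Pcx (-0.39 ± 0.07) fell. In both kinds of culture that lacked KEAP1, Pgd rose while the called lipogenic genes fell. The calls of Khk and Me1 were lost without the 4 arrays (adjusted p = 0.0568 and 0.116).

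Of 14 regulators of SREBP-1c and ChREBP, 5 fell in double knockout hepatocytes and 0 rose. They included Mid1ip1, a partner of acetyl-CoA carboxylase related to Thrsp (-1.64 ± 0.37, adjusted p = 0.0127), Usf1 (-0.57 ± 0.15), the SREBP escort Scap (-0.54 ± 0.11, adjusted p = 0.0079) and the insulin kinase Akt2 (-0.37 ± 0.09). Mid1ip1 and Usf1 were not called without the 4 arrays (adjusted p = 0.106 and 0.136). In NEMO knockout hepatocytes 2 of 14 fell, Ppargc1b (-0.76 ± 0.20, adjusted p = 0.0637 without the 4 arrays) and Rxra (-0.38 ± 0.09), and in KEAP1 knockout hepatocytes 0 of 14 were called. In control hepatocytes against control liver, 2 of 14 were higher, the insulin receptor substrate Irs2 (1.58 ± 0.28, adjusted p = 0.00124) and Ppargc1b (0.70 ± 0.20), and neither was called without the 4 arrays (adjusted p = 0.0628 and 0.255).

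Enzymes that elongate and desaturate fatty acids changed in both directions. Of 12, the polyunsaturated fatty acid enzymes Fads1 (-1.06 ± 0.19), Elovl5 (-0.85 ± 0.12) and Fads2 (-0.75 ± 0.16) fell in KEAP1 knockout hepatocytes and 0 rose. In double knockout hepatocytes 3 fell, among them Fads1 (-1.11 ± 0.19) and the palmitate elongase Elovl6 (-0.88 ± 0.24, adjusted p = 0.199 without the 4 arrays), while 2 rose, Elovl7 (3.79 ± 0.41) and Scd2 (2.55 ± 0.40). Scd2 is a desaturase of brain and other tissues, and it rose where Scd1 did not pass. In liver, 4 of 12 were lower in double than in NEMO knockouts: Fads1 (-1.37 ± 0.27), Fads2 (-1.07 ± 0.15), Elovl6 (-1.02 ± 0.15) and Elovl5 (-0.90 ± 0.19).

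Downstream steps were counted in the same way. Of 13 genes of triglyceride assembly, 1 fell in double knockout hepatocytes, where 2.99% of all genes were called lower. It was the acyltransferase Dgat2 (-0.95 ± 0.13, adjusted p = 0.000339). Dgat2 fell in NEMO knockout hepatocytes as well (-0.64 ± 0.13, adjusted p = 0.00779), and 0 of 13 were called in KEAP1 knockouts. Of 14 genes of lipid droplets and lipolysis, the lipase Lipe fell in double knockout hepatocytes (-0.63 ± 0.17), while Fitm1 rose in KEAP1 knockouts (1.73 ± 0.32) and fell in NEMO knockouts (-1.19 ± 0.32). Of 11 genes of the fasting response, G6pc fell in double knockout hepatocytes (-0.45 ± 0.09) and the pyruvate dehydrogenase kinase Pdk4 rose in NEMO knockout hepatocytes (1.84 ± 0.49). In double against NEMO knockout livers the acyl-CoA synthetase Acsl5 (-0.57 ± 0.11) and the fatty acid hydroxylase Cyp4a14 (-3.42 ± 0.54) were lower.

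In livers against control, none of these pathway lists had a call in limma's test with all arrays, and each had calls without the 4 arrays. Pgd was then higher in NEMO knockouts (0.59 ± 0.13, adjusted p = 0.0115), as 1 of 11, in KEAP1 knockouts (1.83 ± 0.13, adjusted p = 8.29e-06) and in double knockouts (2.25 ± 0.14, adjusted p = 2.81e-06). Tkt and Taldo1 were also higher in KEAP1 and double knockout livers, which made 3 of 11 in each. Of the 12 elongation and desaturation enzymes, 5 were lower in KEAP1 knockout livers, among them Elovl5 (-1.0 ± 0.12) and Fads1 (-0.93 ± 0.12), and 6 in double knockout livers, among them Fads1 (-1.26 ± 0.14, adjusted p = 0.00024). Scd2 and Elovl7 were higher in both of these genotypes, and NEMO knockout livers had Scd2 and Elovl6 higher and Elovl3 lower. Dgat2 was lower in all 3 genotypes, by -0.60 ± 0.10 in NEMO, -0.39 ± 0.10 in KEAP1 and -0.89 ± 0.11 in double knockouts. The 13 genes of triglyceride assembly had 1 higher and 2 lower in NEMO, 1 and 1 in KEAP1 and 1 and 2 in double knockout livers, Dgat2 included. Regulators had 0 of 14 higher and 3 lower in NEMO knockouts (Nr0b2, Ppargc1b and Usf2), 0 and 1 in KEAP1 knockouts (Scap), and 1 higher (Insig2) and 2 lower (Ppargc1b and Scap) in double knockouts. Of the 14 lipid droplet and lipolysis genes, G0s2, an inhibitor of triglyceride lipase, was lower in all 3 genotypes, with Plin3 higher in NEMO knockouts and Mgll lower in double knockouts. Of the 11 fasting genes, Pdk4 was higher in all 3, with Igfbp1 higher in NEMO knockouts and Cyp4a14 lower in double knockouts.

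Markers of other liver cells moved with the genotype in culture, beside the fall of the lipogenic genes. The mean of 7 endothelial markers was 7.21 to 7.62 in NEMO knockout, 6.87 to 7.37 in KEAP1 knockout and 7.58 to 7.77 in double knockout hepatocytes, against 5.38 to 6.26 in control hepatocytes, and 7 of 7 were called higher in each knockout. The mean of 8 macrophage markers was 6.92 to 7.44, 5.92 to 6.50 and 7.51 to 7.99 in the same knockouts, against 5.16 to 5.98 in controls, with 8, 1 and 8 of 8 called higher. The mean of 8 stellate cell markers was 5.93 to 6.23, 4.93 to 5.06 and 5.69 to 5.93, against 4.37 to 4.80, with 7, 1 and 7 of 8 called higher. The 7 hepatocyte markers had 0 called in each knockout, with means of 12.38 to 12.50 in knockouts and 12.46 to 12.55 in controls. Of 5 cholangiocyte markers, 1 (Cftr) was called lower in NEMO knockouts. The mean of 9 adipocyte markers was 4.20 to 4.34 in NEMO knockout, 4.32 to 4.45 in KEAP1 knockout and 4.57 to 4.87 in double knockout hepatocytes, against 3.78 to 4.03 in control hepatocytes. Of these 9, 1 was called higher in NEMO knockouts (Lpl), 2 in KEAP1 knockouts (Lpl and Cd36) and 3 in double knockouts (Lpl, Cd36 and Fabp4), while Adipoq was at most 2.76 in culture. The marker counts in culture are with all arrays. Without the 4 in doubt, KEAP1 knockout hepatocytes lost the calls of Cdh5 (endothelial), Cd68 (macrophage) and Lpl (adjusted p = 0.0504, 0.0959 and 0.0513 in limma's test). On the same arrays Cd36 was called higher in NEMO knockouts (adjusted p = 0.0017). Double against NEMO knockout cultures had 1 of 7 endothelial, 1 of 8 macrophage and 0 of 8 stellate cell markers called, and Pklr was lower there by -1.24. Double against KEAP1 knockout cultures had 0, 6 and 5 of these called higher. In RNA from many cells, fewer cells of a type and less RNA per cell cannot be told apart, and the part of these other cells in the lipogenic changes was not tested.

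Control hepatocytes, where Srebf1 was higher than in control liver, had 7 of 7 endothelial, 7 of 8 macrophage and 6 of 8 stellate cell markers called lower than control liver, and the part of these cells in that difference was not tested either. Of these macrophage markers, Csf1r, Marco and Timd4 were not called without the 4 arrays (adjusted p = 0.0964, 0.0988 and 0.121 in limma's test). In NEMO knockout livers against control the stellate cell markers Cygb and Reln and the macrophage gene Gpnmb were called higher, and no marker of these lists was called in KEAP1 or double knockout livers with all arrays. With the 4 arrays left out, where the lipogenic falls in liver were called, such markers were called higher in every knockout. In NEMO knockout livers 7 of 8 stellate cell, 6 of 8 macrophage and 1 of 7 endothelial markers were higher, in KEAP1 knockout livers 4, 1 and 3, and in double knockout livers 5, 6 and 5. Adipocyte markers were higher for 2 of 9 in NEMO knockouts (Cd36 and Lpl), 2 in KEAP1 knockouts (Cd36 and Fabp4) and 3 in double knockouts (these 3 genes). The fat cell genes Adipoq and Ucp1 were called in none of the knockout livers on these arrays. In double knockouts they changed by -0.04 ± 0.16 and -0.18 ± 0.24. No cholangiocyte marker was called there, and 1 of 7 hepatocyte markers, Apoa1, was lower in KEAP1 knockouts (-0.32 ± 0.07) and double knockouts (-0.33 ± 0.08). The part of these cells in the lipogenic changes in liver was not tested. Array 3 of the liver controls had macrophage markers at 7.75 and stellate cell markers at 7.14, the highest of its group. Adipocyte markers, 9 genes, averaged 4.69 to 7.54 in double knockout livers, against 4.15 to 4.76 in control livers, and the value of 7.54 was array 3. Fat cells also express Fasn, Acaca, Acly, Scd1, Thrsp and Srebf1, and on that array Fasn, Acaca and Pnpla3 were the highest of the group and the other 7 genes the lowest. Leaving out all 4 arrays in doubt made the falls of Pklr and Mlxipl in double knockout livers larger, as given above. Array 3 of the double knockout livers was the lowest of its group for both genes, and array 3 of the liver controls the lowest control. The larger falls therefore came with leaving out that control, not with leaving out the array with fat cell genes.

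**Figure D4:**
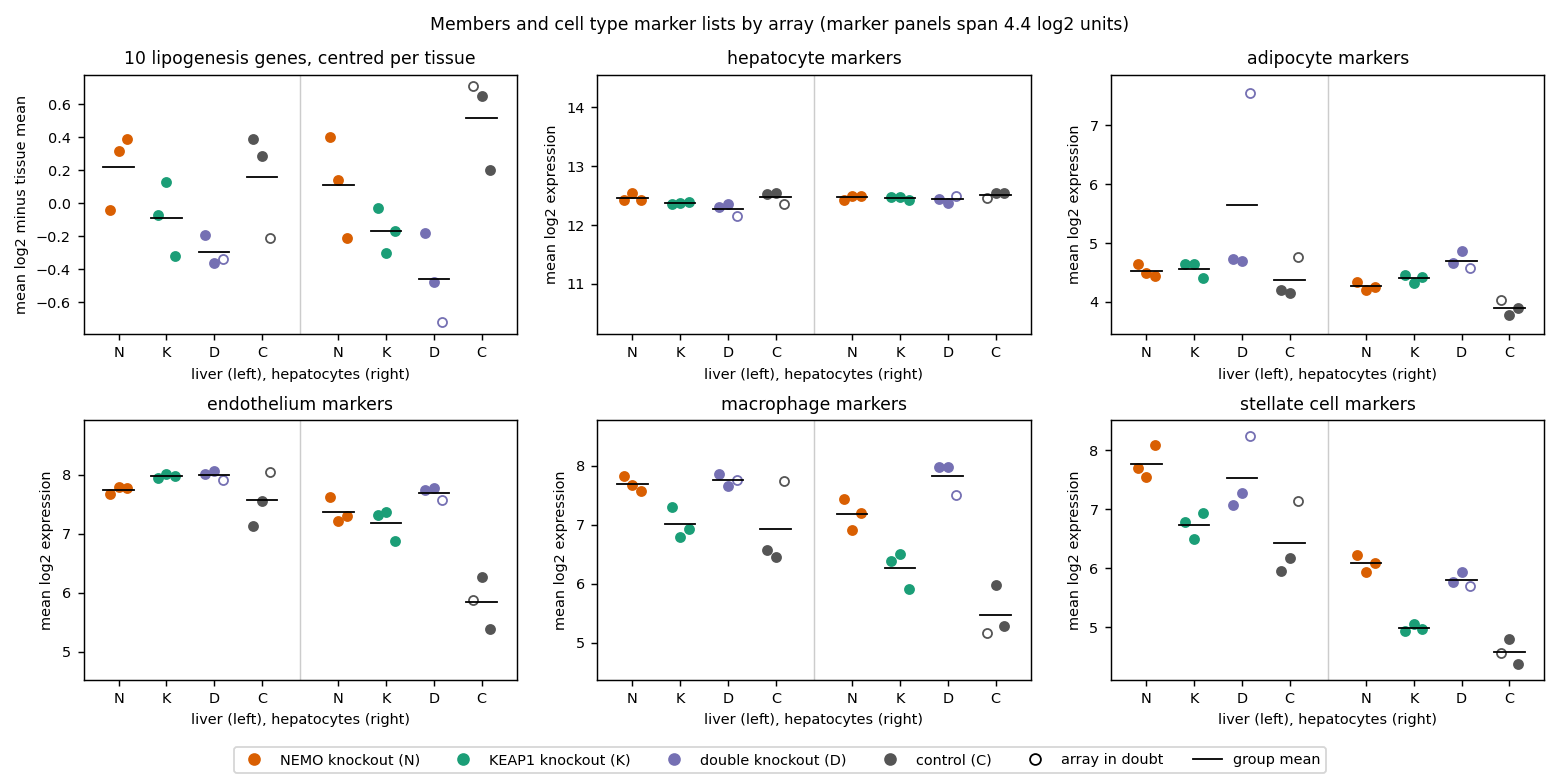
Mean over the 10 lipogenic genes, each centred on its mean in the tissue (first panel), and mean log2 expression of 5 cell type marker lists, by array (y axis) and group (x axis, liver left and hepatocytes right). Points are arrays, lines are group means and open points are the 4 arrays in doubt. Among the hepatocyte groups, endothelial, macrophage and stellate cell markers are lowest in controls, where the lipogenic mean is highest. Hepatocyte markers stay between 12.16 and 12.55 on all arrays.

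Across the 8 group means, the mean of the 10 genes, each centred on its own mean, was compared with every measured gene outside the 10. The closest were Npff (Pearson r = 0.975), Qpct (r = 0.971), Akr1c20 (r = 0.968), Gm10033 (r = 0.967) and Dgka (r = 0.965). Of the 10 genes themselves, Acly (r = 0.896), Fasn (r = 0.879) and Pklr (r = 0.869) were nearest to their common mean and Mlxipl (r = 0.613) and Thrsp (r = 0.623) farthest. Each of the 10 is itself part of that mean, and genes with a wide range weigh more in it. Their r values are therefore not comparable with those of the other genes. All these r values are descriptions over 8 points that share arrays.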

How the data were processed

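Total RNA of 24 samples was hybridised to one-colour Affymetrix mouse arrays. The values the authors deposited are on a log2 scale, and RMA is the tool named in the submitters' processing notes. For RMA, the version, the options and the arrays that entered each run are not given here. No scan dates were used, so no batch was tested, and 3 arrays per group limit the precision. Where nothing says that replicates are separate animals, p-values measure only the spread between these samples.

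Of 35556 probe sets, 21218 had 1 gene symbol in the platform annotation, 1881 had several and 12457 none listed. Symbols were checked through Entrez identifiers (0 changed, 33 unmatched), and the brightest probe set stood for each of 18820 genes. limma 3.58.1 in R 4.3.3 (lmFit, eBayes with an intensity trend, two-sided) was fitted on the 12 arrays of a tissue, or on all 24 for comparisons between tissues. Each of the 19 comparisons was adjusted by Benjamini-Hochberg over all genes, with calls at adjusted p under 0.05. The fit was tested on simulated data. Figures were drawn with Python 3.11.15 and matplotlib 3.10.9.

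The 10 genes were named in every comparison, and of each pathway list up to 4 called genes by size of change. The lists covered carbon and NADPH supply, regulators of SREBP-1c and ChREBP, elongation and desaturation, triglyceride assembly, lipid droplets and lipolysis, the fasting response, and markers of hepatocytes, adipocytes, cholangiocytes, stellate cells, macrophages and endothelium. Genes, lists and the 4 arrays in doubt were chosen with earlier results of these data known. Alternatives were leaving out those 4 or each array in turn, fitting only the compared groups, a replicate block, the mean of probe sets, quantile normalization and a minimum mean of 4. Residuals of same-numbered arrays correlated above 0.1 in all 3 pairs for double knockout against control livers alone (r = 0.115, 0.136 and 0.23, the last joining 2 arrays in doubt), so the blocked value is given there. Residuals of 3 arrays sum to 0, so these correlations are not independent.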

Additional observations from a re-analysis of the deposited data

Results flagged for a closer look

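For 3 genes, every NEMO knockout liver lay above the mean of the control livers while every NEMO knockout culture lay below the mean of the control hepatocytes. The change in hepatocytes minus the change in liver was -1.59 ± 0.40 for Srebf1 (adjusted p = 0.16), -1.18 ± 0.40 for Pnpla3 (adjusted p = 0.346) and -0.40 ± 0.25 for Acaca (adjusted p = 0.647) in limma's test over all genes, so none of the differences passed. Without the 4 arrays in doubt the differences were -1.39 ± 0.41 for Srebf1 (adjusted p = 0.17), -0.75 ± 0.36 for Pnpla3 (adjusted p = 0.405) and -0.10 ± 0.20 for Acaca (adjusted p = 0.897). Acaca was at 8.58, 8.59 and 8.41 in NEMO knockout cultures, against 8.73 and 8.33 in control hepatocytes 2 and 3, so without control 1, an array in doubt, the pattern did not hold for this gene. No cause was tested.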

How the results depend on the processing

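No called result changed direction in the alternatives run, but several counts of the 10 genes called depended on the arrays. Some changes that were never called did turn without the 4 arrays in doubt, among them Pklr at -0.38 instead of 0.02 in NEMO knockout livers and -0.32 instead of 0.08 in KEAP1 knockout livers, and Srebf1 at 0.01 instead of -0.20 in double knockout livers. Without the 4 arrays in doubt the count in liver became 3 for NEMO knockout, 2 for KEAP1 knockout and 3 for double knockout against control, 3 for double against NEMO knockout and 1 for double against KEAP1 knockout, where all arrays gave 0 each. In hepatocytes it became 1 instead of 2 for NEMO knockout, 3 instead of 6 for double knockout and 1 instead of 2 for double against NEMO knockout, and 0 instead of 1 for control hepatocytes against control liver. With only the compared groups in the fit, the counts in hepatocytes were 1 for NEMO knockout, 0 for KEAP1 knockout, 3 for double knockout and 1 for double against NEMO knockout, with 1 for double against NEMO knockout livers and 0 for control hepatocytes against control liver. The replicate block gave 1 for NEMO knockout and 2 for double knockout livers, 1 for double against NEMO knockout livers, 5 for KEAP1 knockout hepatocytes and 4 for double against NEMO knockout hepatocytes. No label says that same-numbered arrays are paired, those of double knockout and control livers included. The mean of probe sets gave 1 for KEAP1 knockout hepatocytes, and quantile normalization and the minimum mean each gave 1 for double against NEMO knockout livers. In these cases the cause was not tested.

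Leaving out each array in turn, arrays of the other groups of a tissue included (a choice made after seeing the data), the count in liver ranged from 0 to 2 for NEMO knockout, 0 to 2 for double knockout, 0 to 2 for double against NEMO knockout and 0 to 1 for double against KEAP1 knockout. The highest of each came without control 3, and double against NEMO knockout livers also gave 1 without control 1 or NEMO knockout 1. In hepatocytes it ranged from 1 to 3 for NEMO knockout, 0 to 5 for KEAP1 knockout, 2 to 8 for double knockout, 1 to 3 for double against NEMO knockout and 2 to 3 for double against KEAP1 knockout. Double knockout gave 3 without control 2 and 2 without double knockout 2, and KEAP1 knockout gave 0 without control 2, KEAP1 knockout 2 or KEAP1 knockout 3 and 5 without control 3. Control hepatocytes against control liver ranged from 0 to 1, with 0 without hepatocyte control 1 or 2 or liver control 1 or 3. Of 15 single results called with all arrays, 6 held in every alternative run: Pklr in 4 hepatocyte comparisons (all but KEAP1 knockout against control) and Mlxipl in double knockout hepatocytes against control and against KEAP1 knockout. The others lost their call in 67 of the 264 alternatives run for the 15.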
